A study of Homo sapiens with 4 samples.

Results

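The genes of the HOXA, HOXB, HOXC and HOXD clusters were read in SK-N-SH cells, an established human neuroblastoma line. Members were all rows whose symbol is HOX followed by a cluster letter and a number, which gave 18 of the 24014 genes in the count table, out of 39 HOX cluster genes in the annotation. RNA was sequenced from 4 libraries. In 2 libraries the cells were wild type by label and had received an empty lentivirus vector (control), and in 2 they had received a recombinant lentivirus that carries the long non-coding RNA AP1AR-DT, named AC109347.1 in the sample titles (AP1AR-DT_OE). For AP1AR-DT_OE 2 the genotype and treatment labels say AC109347.2, against AC109347.1 in its title, and it was placed by the title. Neither the labels nor the methods say whether the libraries of a group came from separate cultures, so p-values measure only the spread between these samples, which may be technical. The study asked what more AP1AR-DT does to the transcriptome, and the HOX counts were read for which of these genes the cells express and whether their levels differ between the groups.

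HOX genes encode transcription factors that bind DNA through the homeodomain, a fold encoded by the homeobox. They lie in 4 clusters on separate chromosomes, and genes at the same position of different clusters form a paralog group. In the embryo, genes with low paralog numbers are used towards the head and those with high numbers towards the tail, so that the set of HOX genes a cell expresses records its position along the body axis. PBX, MEIS and PKNOX proteins bind DNA together with HOX proteins, Polycomb complexes keep unused HOX genes silent, and the MLL and UTX enzymes maintain the used ones. Neuroblastoma arises from the sympathetic lineage of the neural crest.

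Expression was concentrated in HOXC and HOXD genes of the middle of the clusters. A gene was taken as expressed where its count was over 12 in every library, which is 3 read pairs at the roughly 4 counts that a pair was worth in this table. By this floor 9 HOX genes were expressed: HOXD9, HOXC5, HOXD8, HOXC6, HOXC9, HOXD3, HOXC8, HOXB2 and HOXD1. HOXC and HOXD each held 4 of them, HOXB held 1, and no HOXA gene had a row. HOXD11, HOXD10 and HOXB3 passed the floor in some libraries, and HOXC4, HOXD13, HOXC13, HOXB7, HOXC10 and HOXB13 in none. Genes at 0 in all libraries are not listed, and 21 HOX genes had no row in the table used here. These were all 11 HOXA genes, HOXB1, HOXB4, HOXB5, HOXB6, HOXB8, HOXB9, HOXC11, HOXC12, HOXD4 and HOXD12. Of protein-coding genes in the annotation 73.9% had a row, against 46.2% of HOX genes.

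**Figure D1:**
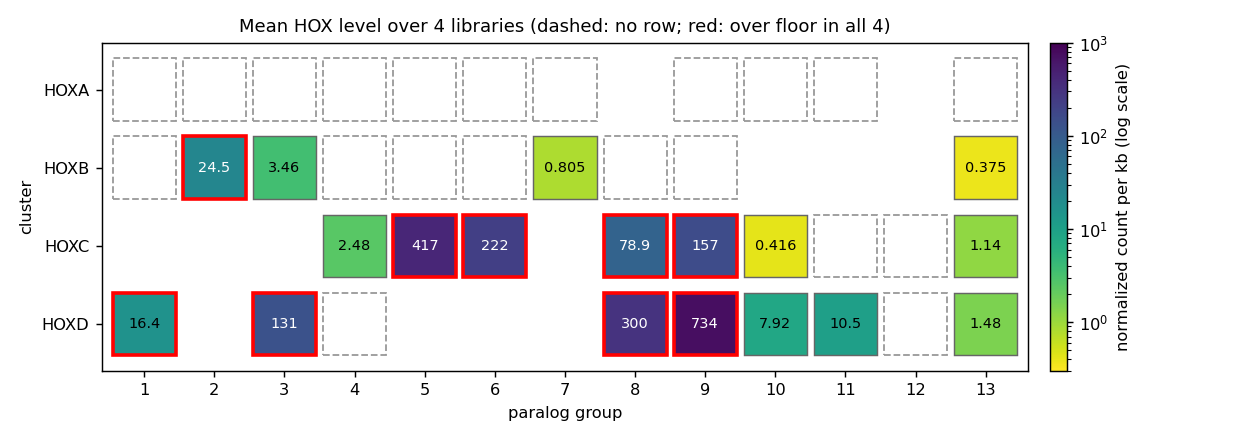
Mean level of each HOX gene over the 4 libraries, with clusters as rows and paralog groups 1 to 13 as columns. Numbers and colour give normalized counts per kilobase of transcript on a log colour scale, red frames mark the 9 genes over the floor in all 4 libraries, thin frames mark other genes with a row, dashed frames mark genes with no row, and blank places have no gene. The red frames lie in HOXB, HOXC and HOXD, and the HOXA row is dashed throughout.

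The part of the homeobox that encodes the recognition helix, which contacts the bases of the target DNA, is shown for 4 expressed genes of paralog groups 6, 8 and 9, because reads are assigned among these related genes by the bases in which they differ. Each is 51 bases (17 codons) of the coding strand, read from GRCh37 by the GENCODE annotation, and lies in exon 2 of a gene with 2 exons in the chosen transcript. Capitals mark bases unlike HOXD9 at the same place, so HOXD9 has none.
HOXD9 (chr2:176988820-176988870, + strand): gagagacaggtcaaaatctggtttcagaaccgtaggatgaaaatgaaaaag
HOXC9 (chr12:54396372-54396422, + strand): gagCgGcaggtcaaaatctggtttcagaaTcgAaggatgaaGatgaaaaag
HOXC6 (chr12:54423582-54423632, + strand): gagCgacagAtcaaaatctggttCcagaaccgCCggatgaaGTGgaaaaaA
HOXD8 (chr2:176996179-176996229, + strand): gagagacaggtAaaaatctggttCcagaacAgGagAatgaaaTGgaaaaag
HOXC9 differed from its paralog HOXD9 at 5 bases in 4 codons, none of which changed the encoded residue. HOXD8 differed from HOXD9 at 7 bases, with 1 codon for another residue, and HOXC6 differed at 9 bases, with 2 such codons. HOXD1, HOXB2 and HOXD3 lay farther from it and were unlike at 10, 13 and 14 bases. Over the whole homeobox of 180 bases, identity in the 36 pairs of expressed genes ran from 53.9% to 83.3% with a median of 63.3%. The highest was between HOXD9 and HOXC9, followed by 77.8% for HOXC5 and HOXC6, 75.6% for HOXD3 and HOXB2 and 74.4% for HOXD8 and HOXC8.

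The libraries held between 21988065 and 26184599 counts. HOX genes together took 4145 counts in control 1, 5014 in control 2, 4129 in AP1AR-DT_OE 1 and 4366 in AP1AR-DT_OE 2, which is 179, 192, 180 and 199 CPM (counts scaled to the library total). The floor of 12 counts lay between 0.458 and 0.546 CPM, and a HOX gene with a count of 0 in a library may have had up to that level. PCR copies are not separate molecules, so this floor covers counting error only. AP1AR-DT itself, listed as RP11-73K9.2, had 3 counts in control 1, 18 in control 2, 680 in AP1AR-DT_OE 1 and 1065 in AP1AR-DT_OE 2 (DESeq2 Log2FC = 6.63, SE = 0.64, adjusted p = 3.64e-21). Markers of the line were present: 7 of 8 adrenergic markers, such as PHOX2A and HAND2, passed the floor in every library. TH, the other adrenergic marker, had no row. Of the mesenchymal markers 8 of 8 passed it, such as VIM and COL1A1. The summed level of the adrenergic list ran from 9142 to 11270 normalized counts per kilobase and of the mesenchymal list from 37650 to 50010. VIM alone had a mean level of 31560 and COL1A1 of 7147, so these sums do not weigh one state against the other. Of 4 blood markers none had a row, and EPCAM and VWF were the only rows among 4 epithelial and 4 endothelial markers, with at most 14 counts in any library. PRRX1, a mesenchymal transcription factor, stood apart with 2432 counts in control 1, 14724 in control 2, 1131 in AP1AR-DT_OE 1 and 2263 in AP1AR-DT_OE 2 (Log2FC = -2.02, DESeq2 adjusted p = 0.431). The other mesenchymal markers did not all go the same way, and none was called. By the sign of Log2FC, SNAI2, YAP1 and CD44 were lower in AP1AR-DT_OE, while VIM, FN1, COL1A1 and COL1A2 were higher. The median Log2FC of the mesenchymal list was 0.002. Cultures of this line can hold both states, and in bulk RNA fewer cells of a type and less RNA per cell cannot be told apart.

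The members of the HOXD cluster on chromosome 2 made up most of the summed level. Levels are compared between genes as normalized counts (counts divided by the library's size factor) per kilobase of the longest transcript. On this scale HOXD genes took 58.8% of the HOX total in control 1, 56.2% in control 2, 57.45% in AP1AR-DT_OE 1 and 55.2% in AP1AR-DT_OE 2, HOXC genes took 40.01% to 42.9%, and HOXB genes 1.04% to 1.91%. The group means were 57.5% ± 1.86 (SD, n = 2) in control and 56.3% ± 1.61 in AP1AR-DT_OE for HOXD, and 41.4% ± 1.97 and 42.0% ± 1.22 for HOXC. Both differences were smaller than the spread between replicates. The HOXB share was 1.12% ± 0.11 in control and 1.63% ± 0.39 in AP1AR-DT_OE, a difference above both SDs, and the groups did not overlap. It rests on few HOXB counts, 55 in control 1, 46 in control 2, 54 in AP1AR-DT_OE 1 and 75 in AP1AR-DT_OE 2. These include 4 counts of HOXB7, under the floor, in AP1AR-DT_OE 1, and 62 of HOXB2 in AP1AR-DT_OE 2. HOXB2 had 31, 38 and 35 counts in the other libraries. With 2 libraries a group no test of these shares was made. By paralog group, group 9 took 41.8% of the level on average (35.9% to 48.2% in single libraries), group 5 took 19.7%, group 8 took 18.4%, group 6 took 10.5% and group 3 took 6.40%. Groups 5, 6, 8 and 9 together took between 88.7% and 91.6% in each library. The means of the remaining groups lay at 1.16% or less, and group 12 had no gene with a row.

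HOXD9 (ENSG00000128709; chr2:176122719-176124937 in the GRCh38 coordinates of the table), a gene of the trunk and limb region in the embryo, had the highest level of all HOX genes. Its counts were 1610 in control 1, 1194 in control 2, 1431 in AP1AR-DT_OE 1 and 1178 in AP1AR-DT_OE 2. Per kilobase its level was 980, 492, 839 and 625 in the same order, with a mean at percentile 89.5 of all genes in the table. It was the highest HOX gene in all 4 libraries, and the libraries numbered 1 were above those numbered 2 in both groups. The gene body of its neighbour HOXD10 ends 2782 bp before that of HOXD9 in the table, and HOXD10 had counts of 13, 31, 0 and 18. Per length HOXD9 was 118 times as high as HOXD10 in control 1, 36.8 times in control 2 and 62.4 times in AP1AR-DT_OE 2, and at least 114-fold higher in AP1AR-DT_OE 1, where HOXD10 had no count. HOXD11, further along the cluster, had 12, 21, 12 and 29 counts, and HOXD13 had 0, 5, 5 and 5. HOXD10 and HOXD11 share 452 exon bases on the same strand, so the division of these few reads between them is uncertain.

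HOXD8 (ENSG00000175879; chr2:176129694-176132695), on the other side of HOXD9, was counted 518 times in control 1, 1276 in control 2, 646 in AP1AR-DT_OE 1 and 865 in AP1AR-DT_OE 2. Its level per kilobase was 225, 376, 271 and 328. Here the libraries numbered 2 were the higher in both groups, the reverse of HOXD9, and the AP1AR-DT_OE libraries lay between the controls. HOXD3 (ENSG00000128652; chr2:176136612-176173102), a member of the group that patterns the hindbrain and neck, had counts of 297, 353, 278 and 374, and 138, 111, 124 and 152 normalized counts per kilobase. HOXD1 (ENSG00000128645; chr2:176188668-176190907), at the end of the cluster used towards the head, had only 16, 50, 40 and 23 counts. In GENCODE 989 of its exon bases (52.4%) are also exon of a gene on the opposite strand that has no row. It shares another 145 with HOXD-AS1, also on the opposite strand. The library kit does not mark the strand, so these few reads may not all be of HOXD1, and its place among the expressed genes is uncertain. HOXD4, which lies between HOXD8 and HOXD1, had no row.

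To show the start of a HOXD gene over the floor and of one near it, on either side of HOXD9, the 250 bases before HOXD8 and before HOXD10 are given from RefSeq (GRCh38.p14), where HOXD9 had no entry in the table used. Capitals mark CpG dinucleotides, the sites of DNA methylation.
HOXD8 (chr2:176129455-176129704, + strand): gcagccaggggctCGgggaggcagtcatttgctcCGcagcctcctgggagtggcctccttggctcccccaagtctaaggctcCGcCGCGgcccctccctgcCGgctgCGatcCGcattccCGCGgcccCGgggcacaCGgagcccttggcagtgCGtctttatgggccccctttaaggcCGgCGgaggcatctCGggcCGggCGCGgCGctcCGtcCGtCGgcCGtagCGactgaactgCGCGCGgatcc
HOXD10 (chr2:176116528-176116777, + strand): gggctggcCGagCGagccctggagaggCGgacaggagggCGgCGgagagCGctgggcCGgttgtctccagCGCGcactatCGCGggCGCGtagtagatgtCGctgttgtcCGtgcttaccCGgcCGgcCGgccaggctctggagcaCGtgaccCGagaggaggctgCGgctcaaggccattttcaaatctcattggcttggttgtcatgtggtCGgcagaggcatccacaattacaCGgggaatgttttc
The first holds 28 CpG dinucleotides and the second 23. In windows of 300 bases (250 before to 50 after the start), RefSeq gave 27 promoters for 20 HOX genes, with a median of 22 CpG dinucleotides against 14 over all 35116 promoters. The median was 29.5 for the 4 expressed genes with an entry (HOXC5, HOXD1, HOXD3 and HOXD8) and 19 for the 19 promoters of 12 genes with no row, with ranges of 15 to 36 and 0 to 44 that overlap. The window of HOXC5 is also that of HOXC4, which did not pass the floor, and several windows of genes with no row are of HOXA3. The sets are thus small and not distinct by gene. The motif AGGTCA, a half-site of nuclear receptors such as those for retinoic acid, was found on either strand in 0% of HOX promoters and 13.8% of all. The motif TGATNNAT, a site form bound by PBX and HOX proteins together, was found on either strand in 11.1% of HOX promoters (those of HOXA2, HOXB1 and HOXD11) and 7.40% of all. These are matches of letters in the windows and no measure of binding. The HOX shares rest on the 27 windows, 19 of them of genes with no row, and no comparison at like CpG content was made.

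HOXC5 (ENSG00000172789; chr12:54033050-54035361) led the HOXC cluster with 680 counts in control 1, 691 in control 2, 654 in AP1AR-DT_OE 1 and 666 in AP1AR-DT_OE 2. Its level per kilobase was 481, 331, 445 and 410, with a mean at percentile 83.6. HOXC5 was under HOXD9 in all 4 libraries and over HOXD8 in 3, so the order of HOXC5 and HOXD8 did not hold in control 2. HOXC4, which has the same start in RefSeq, had counts of 3, 8, 4 and 3, or 1.74 to 3.61 normalized counts per kilobase. In GENCODE 484 exon bases of HOXC4 (17.5%) are also exon of HOXC6, and 67.3% of the exon bases of HOXC5 are shared with a long non-coding RNA on the same strand that has no row, so the division of reads between these genes is uncertain. Levels of HOXC5 and HOXC4 therefore depend on how the authors' counting placed reads of shared exons.

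HOXC6 (ENSG00000197757; chr12:53990624-54030823), used in the thoracic region of the embryo, had counts of 577, 748, 637 and 681 and levels of 223, 196, 237 and 230 per kilobase. HOXC9 (ENSG00000180806; chr12:53994895-54003337), a thoracic HOX gene, had counts of 190, 317, 204 and 260 and levels of 144, 162, 149 and 172 per kilobase. HOXC8 (ENSG00000037965; chr12:54008985-54012769) had counts of 170, 266, 161 and 189 and levels of 80.1, 84.9, 73.1 and 77.6 per kilobase. These 3 genes kept the order HOXC6, HOXC9, HOXC8 in all 4 libraries, with HOXD3 between HOXC9 and HOXC8. Per length HOXD9 was 3.03 to 6.82 times as high as its paralog HOXC9, and HOXD8 was 2.81 to 4.43 times as high as HOXC8. The gene body of HOXC10 ends 4616 bp before that of HOXC9, and HOXC10 had no count in 3 libraries and 3 counts in AP1AR-DT_OE 1, HOXC13 had at most 8 counts, and HOXC11 and HOXC12 had no row. In HOXC and HOXD the level thus stepped down between paralog groups 9 and 10.

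HOXB2 (ENSG00000173917; chr17:48540894-48545109), a hindbrain gene in the embryo, was the only HOXB gene over the floor in all libraries. It was counted 31 times in control 1, 38 in control 2, 35 in AP1AR-DT_OE 1 and 62 in AP1AR-DT_OE 2. HOXB3 had counts of 20, 8, 15 and 13, HOXB7 had 4 in AP1AR-DT_OE 1 and HOXB13 had 4 in control 1, with 0 in the other libraries. HOXB2 and HOXD1 were each the higher in 2 of the 4 libraries and did not differ in rank beyond their spread.

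**Figure D2:**
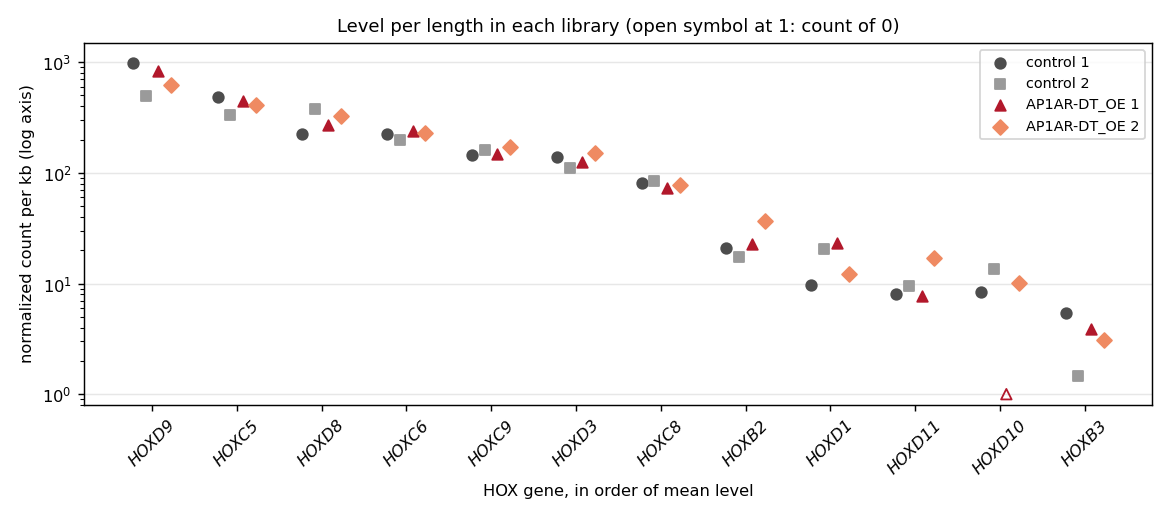
Level of the 12 HOX genes over the floor in at least 1 library, as normalized counts per kilobase on a log axis, with 1 symbol for each of the 4 libraries. An open symbol drawn at 1 stands for a count of 0. HOXD9 is highest in every library, and HOXD10 has an open symbol in AP1AR-DT_OE 1.

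No HOX gene passed the test between AP1AR-DT_OE and control. Of the 18 genes with a row 0 passed an adjusted p under 0.05 in the DESeq2 Wald test and 0 had an unadjusted p under 0.05, and the edgeR quasi-likelihood test gave 0 by both measures among the 12 it tested, where it called 0 of all 17027 genes and 112 of them had an unadjusted p under 0.05. Among all genes DESeq2 called 33 of 24014 (20 higher and 13 lower), or 0.137%, and a count of 0 of 18 lies near this background. The median Log2FC of the 9 expressed genes was 0.08, and that of the 14732 genes over the floor in all libraries was -0.02. The 95% intervals of the 7 genes with the highest level lay within -1.19 and 1.13. With 2 libraries a group they leave room for changes up to about this size. The p-values do not show that the levels were equal. These intervals are not adjusted for the number of genes tested, so their bounds are no limit of detection. A larger change could also go uncalled, as for PRRX1 (Log2FC = -2.02, SE = 0.61, DESeq2 adjusted p = 0.431).

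Among the HOXD genes, the control mean of HOXD9 was 1377 ± 645 normalized counts (SD, n = 2) and its AP1AR-DT_OE mean 1369 ± 283, with a Log2FC of -0.01 (SE = 0.50, DESeq2 adjusted p = 1). HOXD8 had 787 ± 279 against 784 ± 106 (Log2FC = -0.01, SE = 0.48, DESeq2 adjusted p = 1). For both genes the AP1AR-DT_OE libraries lay between the controls. HOXD3 had 305 ± 46.6 against 338 ± 46.9 (Log2FC = 0.15, SE = 0.50, DESeq2 adjusted p = 1), and HOXD1 had 28.4 ± 14.4 against 33.4 ± 14.9 (Log2FC = 0.22, SE = 0.99, DESeq2 adjusted p = 1). The ratio within libraries of the same number changed sign in all 4 genes: on the log2 scale it was -0.22 in number 1 and 0.34 in number 2 for HOXD9, 0.26 and -0.20 for HOXD8, -0.15 and 0.45 for HOXD3, and 1.27 and -0.76 for HOXD1. Each number held 1 library per group, so these ratios have no test.

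Among the HOXC genes, HOXC5 had 654 ± 171 normalized counts (SD, n = 2) in control against 689 ± 39.8 (Log2FC = 0.08, SE = 0.47, DESeq2 adjusted p = 1), with within-number ratios of -0.11 and 0.31. HOXC6 had 617 ± 56.7 and 687 ± 16.1 (Log2FC = 0.16, SE = 0.46, DESeq2 adjusted p = 1), with within-number ratios of 0.09 and 0.23. HOXC9 had 230 ± 19.9 and 241 ± 24.2 (Log2FC = 0.06, SE = 0.52, DESeq2 adjusted p = 1), with 0.05 and 0.08. HOXC8 had 199 ± 8.18 and 182 ± 7.77 (Log2FC = -0.13, SE = 0.54, DESeq2 adjusted p = 1), with -0.13 in both numbers. HOXB2 had 32.3 ± 4.24 and 49.96 ± 16.4 (Log2FC = 0.63, SE = 0.86, DESeq2 adjusted p = 1), with 0.12 and 1.07. In normalized counts the groups did not overlap for 3 of the 9 expressed genes, with both AP1AR-DT_OE libraries above the controls for HOXC6 and HOXB2 and under them for HOXC8. Over all 14732 genes above the floor the groups did not overlap for 10.9%. The 9 HOX genes are few and share the libraries, so 3 of 9 was not tested against this share.

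**Figure D3:**
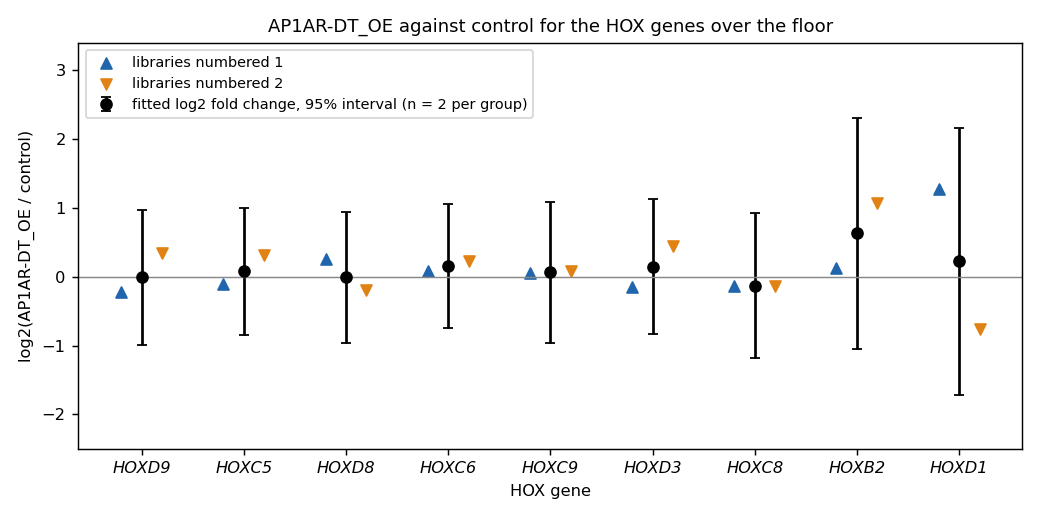
Log2 ratio of AP1AR-DT_OE over control for the 9 HOX genes over the floor in all 4 libraries, in order of level. Black points and bars give the DESeq2 estimate and its 95% interval with n = 2 per group, and triangles give the ratio within libraries numbered 1 and numbered 2. Every interval includes 0, and the triangles of HOXD1 lie at 1.27 and -0.76.

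For HOXD9 and HOXD8 the controls differed from each other by more than the group means did. The same held for the other expressed HOX genes except HOXC8 and HOXB2. The log2 ratio of control 2 over control 1 was -0.99 for HOXD9, whose transcript has 62.6% GC, and 0.74 for HOXD8, with 53.6% GC. Over 13284 genes with GC values and mean normalized counts of 50 or more this ratio fell with GC content (Spearman's rho = -0.77, across genes, and genes are no independent replicates). The same ratio between the AP1AR-DT_OE libraries, number 2 over number 1, also fell with it (rho = -0.65). Over the 9 expressed HOX genes, which share the libraries, rho was -0.73 for the controls and -0.08 for the AP1AR-DT_OE libraries. The part of GC content in the HOX values of single libraries was not tested gene by gene.

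**Figure D4:**
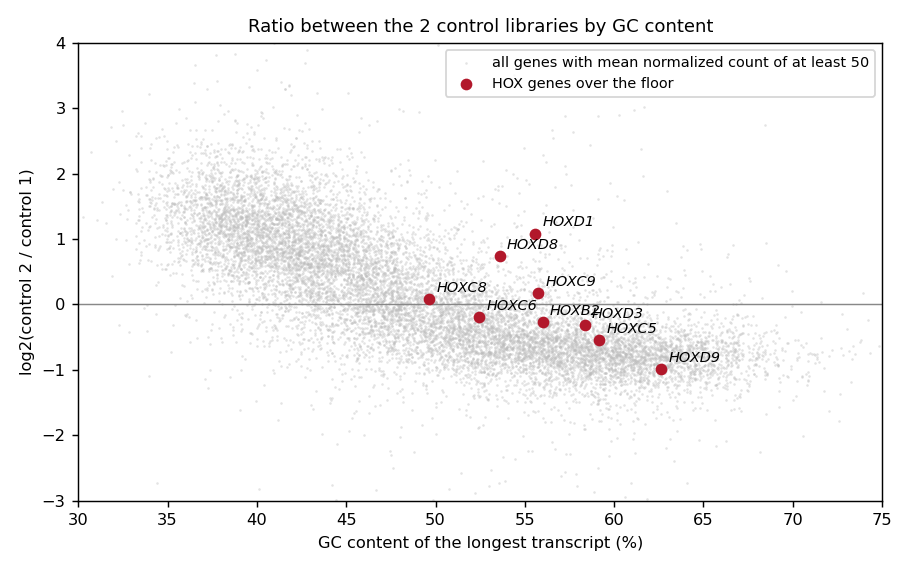
Log2 ratio of control 2 over control 1 against the GC content of the longest transcript in percent. Grey points are 13187 genes with mean normalized counts of 50 or more (97 more lie outside the axes) and red points are the 9 HOX genes over the floor. The grey cloud runs from above 0 at low GC to under 0 at high GC, with HOXD9 at 62.6% GC and -0.99 and with HOXD8 and HOXD1 above most genes of like GC.

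The other transcripts of the clusters had counts mostly in HOXD. Of 25 listed, 8 had a row and 3 passed the floor in all libraries, and 0 passed the test in either direction. HOXD-AS2, an antisense RNA of the cluster, had 232, 190, 241 and 173 counts and a mean of 212 normalized counts per kilobase, HOXD-AS1 had 246, 419, 261 and 217 counts (mean level 66.0; Log2FC = -0.27, DESeq2 adjusted p = 1), and HOXC-AS1 had 13 to 15 counts (mean level 26.1). HOXC-AS2 had 0 to 12. HOXD-AS2 shares 642 exon bases with HOXD8 on the opposite strand, 24.4% of the exon bases of HOXD8, and 379 with HOXD3. The library kit does not mark the strand, so reads of these overlaps cannot be told apart. HOTAIRM1, the RNA at the start of HOXA, had 2 counts in AP1AR-DT_OE 2 and 0 elsewhere.

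Genes that flank the clusters were read as neighbours outside them. Of 13 listed, 8 had a row and 7 passed the floor in all libraries, and 0 passed the test. HIBADH, beyond one end of HOXA, had 395, 1485, 579 and 878 counts (mean level 413), and SKAP2, beyond the other end, had 47, 95, 30 and 58 (Log2FC = -0.49, DESeq2 adjusted p = 1), while no HOXA gene between them had a row. Beside HOXC the DNA repair gene SMUG1 (mean level 681) and CBX5 (192), and beside HOXD the mitochondrial gene MTX2 (174) were expressed. KIAA1715, at the other end of HOXD, had 86, 296, 87 and 178 counts (Log2FC = -0.26, DESeq2 adjusted p = 1).

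The partners that bind DNA with HOX proteins were expressed, and none of the 9 listed passed the test. All 9 had a row and 8 passed the floor in all libraries, with PKNOX2 at 0 to 6 counts. The highest mean levels were 297 normalized counts per kilobase for MEIS3, 218 for MEIS2 and 215 for PBX3. MEIS1 had 110, 245, 142 and 220 counts (Log2FC = 0.25, SE = 0.58, DESeq2 adjusted p = 1), and the ranges of its groups overlapped.

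The chromatin regulators of HOX genes were expressed on both sides. Of 20 Polycomb genes 18 had a row and 17 passed the floor, among them PHF19 (mean level 686) and the chromobox genes CBX2 (612) and CBX6 (507). Of 11 genes of the MLL and UTX group all passed it, led by MEN1 (mean level 1328), the shared subunit WDR5 (912), the methyltransferase KMT2B (288) and the H3K27 demethylase KDM6B (260). No gene of either list passed the test in either direction, with a median Log2FC of -0.02 for the Polycomb genes and -0.15 for the MLL and UTX genes over the floor. Where the mean normalized count was 50 or more, the largest differences were in AEBP2, a partner of the H3K27 methyltransferase complex, with 154, 627, 163 and 164 counts (Log2FC = -0.95, SE = 0.60, DESeq2 adjusted p = 1), and in KDM6A, with 89, 170, 40 and 99 (Log2FC = -0.71, SE = 0.70, DESeq2 adjusted p = 1). For AEBP2 control 2 stood above the other libraries, which lay close together. EED had a Log2FC of 0.31 and KMT2D of -0.39, both with a DESeq2 adjusted p = 1.

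Of 15 genes of the CDX and retinoic acid input to the clusters, 9 had a row and 5 passed the floor. The retinoic acid receptors RARG (mean level 1155) and RARA (544) were the highest, followed by their partner RXRA (116) and by ALDH1A3 (60.5), an enzyme that makes retinoic acid. CDX1 had 0 to 20 counts, and CDX2 and CDX4 had no row. RARB, itself a gene that retinoic acid induces in many cells, had 102, 390, 106 and 200 counts (Log2FC = -0.41, SE = 0.64, DESeq2 adjusted p = 1). RXRA had a Log2FC of -0.20 and ALDH1A3 of 0.16, and 0 of the 9 passed the test.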

How the data were processed

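RNA of the 4 SK-N-SH libraries was prepared with a TruSeq kit that does not mark strand. The authors aligned 150-bp paired reads with HISAT2 to hg19 and derived deposited counts per gene with StringTie and its script, per the paper, while the submitters' processing notes list TopHat2 2.0.4, HTSeq, Cuffdiff and edgeR 2.6.12. These deposited counts are not normalized and are whole numbers. About 4 counts stand for a read pair: 3287 entries were 4, against 2136 at 3 and 1509 at 5. The table also holds fold changes and p-values of the authors' DESeq2 and edgeR tests, which were not used. Libraries were grouped by title.

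Counts of all 24014 genes were fitted with DESeq2 1.42.0 in R 4.3.3 (median-of-ratios size factors, two-sided Wald test, no covariate, Benjamini-Hochberg adjustment with default independent filtering, call at an adjusted p under 0.05), and only HOX and listed genes are printed. Transcript length, GC content and exon overlap came from GENCODE 44 (its GRCh37 version), in which 23954 genes were found by ID, and gene coordinates are those of the table (GRCh38). The HOX members and the gene lists were chosen with earlier results of these data known. Expressed HOX genes are named with all libraries. Of each list the text names called genes, up to 4 with the highest level per length, and up to 2 with the largest absolute Log2FC at a mean normalized count of at least 50. Some genes and sequences that this rule would name are not reported here. Genes named beyond this rule (PKNOX2, the CDX genes, HOTAIRM1 and single cell type markers) were chosen after their values were seen. Alternatives were edgeR 4.0.16, TMM factors, count filters, no independent filtering, counts divided by 4, a GC correction (lowess, span 0.3), the replicate block, other floors and lengths, and leaving out each library. The procedure was tested on simulated counts.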

Additional observations from a re-analysis of the deposited data

How the results depend on the processing

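The count of HOX genes called was 0 under the main test and all 12 alternatives, as was that of the 63 partner, regulator and neighbour genes with a row. At an unadjusted p under 0.05 the main test and edgeR gave 0 in both sets, while 1 HOX gene passed that level without AP1AR-DT_OE 2, and 1 gene of the other set passed it in each of the tests without control 1, without control 2 and without AP1AR-DT_OE 1. The count of all genes called was 33 in the main test, 15 with counts divided by 4, 55 with the GC correction, 59 with the GC correction and the replicate block, 45 to 90 when 1 library was left out (90 without control 1, 75 without control 2, 45 without AP1AR-DT_OE 1 and 50 without AP1AR-DT_OE 2), and 0 by edgeR, whose unadjusted p was under 0.05 for 112 genes. With 1 library left out, the lone sample of its group is assumed to vary like the other group. The cause of these moves was not tested.

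With the replicate block 37 genes were called over the table, and the Log2FC turned to 0.059 for HOXD9 and 0.031 for HOXD8. The labels do not say what the number marks, and with 2 numbers the correlation of deviations between same-numbered libraries was 0.49 across 13298 genes. With the GC correction the Log2FC of HOXC9 was -0.009. Leaving out 1 library gave Log2FC ranges of -0.41 to 0.57 for HOXD9, -0.16 to 0.37 for HOXC5, -0.33 to 0.42 for HOXD8, -0.056 to 0.17 for HOXC9, -0.012 to 0.31 for HOXD3 and -0.33 to 0.88 for HOXD1, all of which include 0, and 0.08 to 0.25 for HOXC6, -0.19 to -0.08 for HOXC8 and 0.24 to 0.93 for HOXB2. For HOXC6, HOXC8 and HOXB2 the groups did not overlap, which all but fixes the sign in advance when 1 library is left out. The lowest unadjusted p of an expressed HOX gene over all alternatives was 0.208 and the lowest adjusted p was 0.999 (DESeq2 and edgeR). The HOXB share of the level was 0.988% with all exons joined against 1.38%, and the HOXC share 40.3% with no length correction against 41.7%. Floors of 1 and 10 read pairs gave 11 and 7 HOX genes in place of 9. Depth limits what can be said of genes with under 12 counts in a library.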
